A study of Rattus norvegicus with 8 samples.

Results

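The genes described here are 8 enzymes of rat liver that act on steroids at the 17-position or reduce the steroid ring and its keto groups, or belong to the same families: the 17-beta-hydroxysteroid dehydrogenases Hsd17b2, Hsd17b6, Hsd17b10, Hsd17b11, Hsd17b12 and Hsd17b13, the 5-alpha-reductase Srd5a1 and the 3-alpha-hydroxysteroid dehydrogenase Akr1c14. Probes were taken by gene symbol, older symbols included. In this way 7 of the 8 genes had a probe, 9 probes of 23615 in all, and 7 of 14332 gene symbols. Akr1c14 had none under its present symbol, under Akr1c9 or by its accession, and is not analysed here.

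Total RNA of livers of 8 Sprague Dawley rats was read on Agilent arrays with 2 colours, each liver in Cy5 against a pool of control liver RNA in Cy3 that was common to all arrays. The labels describe 4 rats injected intraperitoneally with 3 mg/kg of lipopolysaccharide (LPS), an endotoxin from the outer membrane of bacteria, and 4 controls, called non-treated in one label and given 0.9% sodium chloride in another; livers were taken at 24 h, and age is recorded as not known. In the column headers the doses differ: LPS array 1 carries 100 mkd and the word Mid, LPS arrays 2 to 4 carry 1000 mkd and the word High, the controls carry 0 mkd, and the day is 2 throughout. The groups are therefore called LPS and control without a dose. Array numbers follow the columns of the table and are not the replicate numbers in the labels, since the column names carry none, and in the labels the replicates are named biological.

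Most 17-beta-hydroxysteroid dehydrogenases are short-chain dehydrogenases that use NAD or NADP to oxidise or reduce the oxygen at carbon 17 of oestrogens and androgens, and so turn strong hormones into weak ones or the reverse. Several members of the family work mainly on other substrates, among them fatty acyl-CoA, retinol and the breakdown products of isoleucine. The liver is the main organ in which circulating steroids are reduced, oxidised, hydroxylated and conjugated, and 5-alpha-reductase and 3-alpha-hydroxysteroid dehydrogenase act there one after the other on testosterone, progesterone and glucocorticoids.

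Values are the log2 ratio of liver over pool, so 0 means a level equal to that of the control pool. Each array gave values for 23408 to 23529 probes, with a median liver intensity of 0.12 to 0.17 units, and 31.1% to 44.6% of probes read less than 0.1 units. Over probes, the log2 ratio had an SD of 0.50 to 0.573 on LPS arrays and 0.222 to 0.339 on control arrays. In the pool channel all arrays carry the same RNA. There the log2 values of 3571 bright probes were centred on each array's median and then on each probe's mean over the 8 arrays. The correlations are of these deviations, not of the pool intensities, and such centring makes some of them negative. LPS arrays 2 to 4 correlated with each other at 0.37 to 0.52, and control arrays 2 to 4 with each other at 0.48 to 0.60. Between LPS arrays 2 to 4 and control arrays 2 to 4 the correlations were -0.69 to -0.50. Array 1 of each group stood outside these sets, with correlations of -0.46 to 0.19 to the other arrays for LPS array 1 and -0.46 to 0.18 for control array 1. For arrays 2 to 4, array set and treatment cannot be told apart. Each probe has its own brightness, so intensities of different probes are not compared as RNA levels. The sums over cell type markers given below add such intensities, and the brightest probes weigh most in them.

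Groups were compared with limma over 21052 features, with Benjamini-Hochberg adjustment and a threshold of 0.05. Of the 7 genes with a probe, 5 had at least 3 values in each group and could be tested. Of these, 3 fell in LPS livers (Hsd17b2, Hsd17b13, Hsd17b10), 1 rose (Hsd17b12), and the average of the 2 probes of Srd5a1 did not pass. Over all features 24.7% were called, 12.2% higher and 12.4% lower, and the median difference was -0.04. The LPS and control arrays did not overlap for 4 of the 5 genes, against 27.8% of all features.

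**Figure D1:**
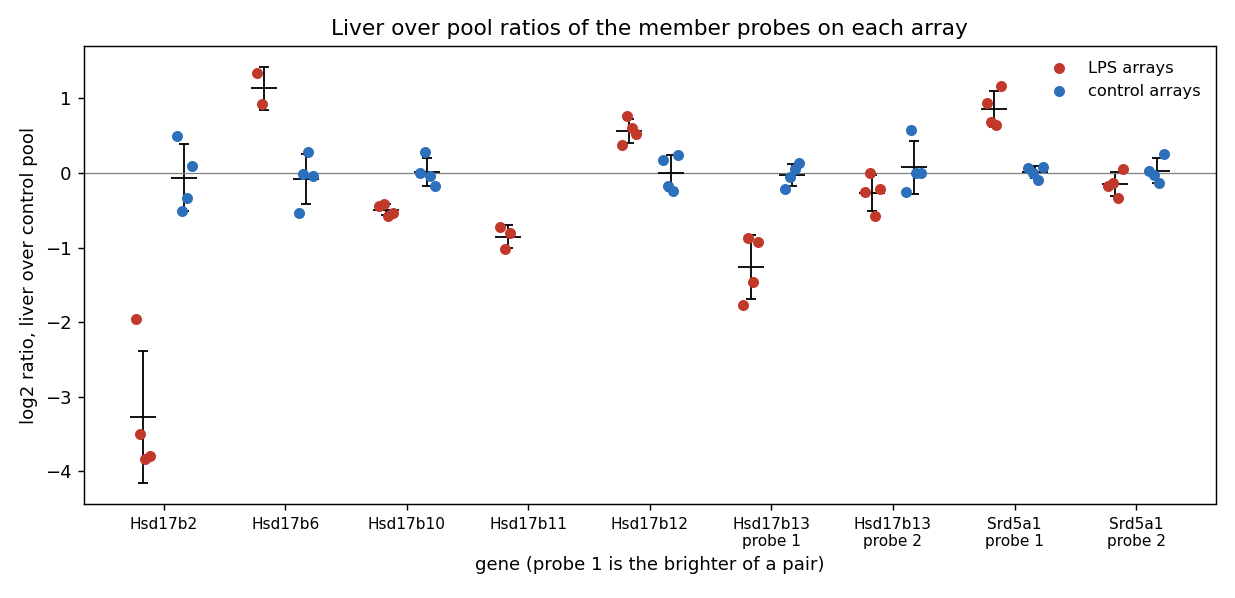
Log2 ratio of liver over pool on each array for the 9 probes of the 7 genes, LPS arrays to the left of control arrays, with group means as lines. The LPS points of Hsd17b2 lie between -3.83 and -1.96 and the control points between -0.51 and 0.50, while the bright probe of Srd5a1 lies at 0.64 to 1.17 on LPS arrays and -0.09 to 0.08 on control arrays.

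Hsd17b2 oxidises oestradiol to oestrone and testosterone to androstenedione and so lowers the activity of both hormones. Its liver intensity was 6.75, 2.39, 1.81 and 1.74 units on LPS arrays 1 to 4, against 35.58, 21.4, 23.27 and 31.27 units on control arrays 1 to 4. Every LPS liver was far below every control liver, and among the LPS livers that of array 1 was the highest. The pool channel of the same probe stayed between 24.26 and 30.5 units over the 8 arrays. The log2 ratio was -1.96, -3.50, -3.83 and -3.80 in LPS livers, against 0.50, -0.51, -0.33 and 0.09 in control livers. On average Hsd17b2 was 9.26-fold lower in LPS livers, with a mean log2 ratio of -3.27 ± 0.89 in LPS livers and -0.06 ± 0.45 in control livers (SD, n = 4 each; difference -3.21 ± 0.45 SE, adjusted p = 0.00219 by limma). An exact two-sided permutation test over the 70 splits of the arrays gave p = 0.0286, the smallest it can give with 4 against 4. Hsd17b2 was the 1 gene of the 5 that also passed a test against a 1.5-fold change (adjusted p = 0.0206 by limma's treat, where 1.86% of all features passed) and the 1 gene that was both called and changed at least 2-fold as a gene average, as 3.75% of all features were. In the authors' deposited table, whose p-value compares the channels of a single array, the probe had p = 9.73e-17, 2.77e-22, 2.05e-29 and 1.1e-18 on LPS arrays 1 to 4 and a p under 0.01 on 0 of 4 control arrays.

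Hsd17b6, which in humans and rodents oxidises 3-alpha-androstanediol back towards dihydrotestosterone and resembles retinol dehydrogenases, could not be tested with at least 3 values per group, since LPS arrays 3 and 4 lacked a value. Its liver intensity was 43.17 and 23.11 units on LPS arrays 1 and 2, against 15.39, 20.56, 27.24 and 26.64 units on control arrays 1 to 4. LPS array 1 was above all controls and LPS array 2 lay among them. The pool channel was also lower on the LPS arrays, at 17.06 and 12.11 units, than on the control arrays, at 22.44, 20.87, 22.39 and 27.34 units, and its part in the ratio was not tested. As log2 ratios the values were 1.34 and 0.93 in LPS livers, against -0.54, -0.02, 0.28 and -0.04 in control livers. When 2 values per group were allowed, a setting chosen after the data were seen, the difference was 1.22 ± 0.25 (SE), 2.32-fold higher in LPS livers, with an adjusted p of 0.02 by limma. The exact two-sided permutation test over the 15 splits of these arrays gave p = 0.0667, the smallest possible with 2 against 4.

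Srd5a1 reduces testosterone to dihydrotestosterone with NADPH and starts the reductive clearance of other 3-keto steroids in liver. Its 2 probes, both annotated with the same RefSeq transcript, disagreed. The brighter probe read 24.85, 19.64, 18.09 and 27.29 liver units on LPS arrays, against 14.08, 13.48, 12.78 and 15.18 units on control arrays, so that the groups did not overlap. Its pool channel was 11.59 to 12.92 units on LPS arrays and 13.45 to 14.37 units on control arrays. With every probe fitted on its own, where 24.9% of 23427 probes were called, the brighter probe was 1.80-fold higher in LPS livers (difference 0.85 ± 0.12 SE, adjusted p = 0.00252 by limma; log2 ratios 0.94, 0.68, 0.64 and 1.17 in LPS livers, against 0.07, 0.00, -0.09 and 0.08 in control livers). The other probe read 0.63, 0.54, 0.42 and 0.58 units on LPS arrays, against 0.56, 0.54, 0.52 and 0.60 units on control arrays. Here the groups overlapped and the difference was -0.18 ± 0.11 (SE, adjusted p = 0.274 by limma). The average of the probes was 0.36 ± 0.19 in LPS livers and 0.02 ± 0.12 in control livers (SD, n = 4 each), a difference of 0.33 ± 0.11 (SE) that missed the threshold (adjusted p = 0.0597 by limma). It passed without LPS array 3 (difference 0.40, adjusted p = 0.0419 by limma) and when only features averaging at least 0.1 liver units in a group were tested (adjusted p = 0.0363 by limma), with p from 0.0265 to 1 over its 23 alternatives. Ranges of p over 23 alternatives, here and below, are not of a single test. They hold adjusted p of limma, adjusted p of treat against a 1.5-fold change, and the unadjusted p of the exact permutation test.

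Promoters of 6 of the 8 genes were found in the RefSeq promoter table (GRCr8), as 300 bases, 250 before and 50 after the start. Those of Srd5a1 and Hsd17b13 are shown because the brighter probes of these 2 genes moved in opposite directions. Capitals mark GGGCGG (the GC box) or CCAAT, in either strand.
Srd5a1, chr1:35514664-35514963, + strand: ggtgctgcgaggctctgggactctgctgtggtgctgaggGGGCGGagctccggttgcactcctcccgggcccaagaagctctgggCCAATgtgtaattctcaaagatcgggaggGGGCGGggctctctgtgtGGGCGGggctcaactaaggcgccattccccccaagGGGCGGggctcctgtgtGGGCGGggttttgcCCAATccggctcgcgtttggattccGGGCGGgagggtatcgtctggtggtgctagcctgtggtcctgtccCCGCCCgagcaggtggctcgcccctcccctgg
Hsd17b13, chr14:6056539-6056838, + strand: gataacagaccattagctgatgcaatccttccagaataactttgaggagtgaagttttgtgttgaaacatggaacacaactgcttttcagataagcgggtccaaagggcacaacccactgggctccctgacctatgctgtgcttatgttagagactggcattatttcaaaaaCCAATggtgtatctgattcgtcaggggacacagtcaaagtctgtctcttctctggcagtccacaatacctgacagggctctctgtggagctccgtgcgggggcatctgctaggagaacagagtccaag
The Srd5a1 promoter held 7 GC boxes and 2 CCAAT boxes, and the Hsd17b13 promoter held 0 and 1. Of the 33469 rat promoters in the table, 33.1% had at least 1 GC box and 37.5% at least 1 CCAAT box. The numbers of GC and CCAAT boxes were 1 and 2 for Hsd17b12, 0 and 1 for Hsd17b10, 1 and 1 for Hsd17b11, and 0 and 1 for Akr1c14. TATAAA was in none of the 6 windows and in 14.2% of all promoters, and TTCNNNGAA, a core letter pattern of STAT sites, in none of the 6 and in 8.9% of all. TTGCNNAA, a C/EBP-type pattern, was among these 6 in that of Srd5a1 alone, where it begins at base 195 and overlaps the CCAAT that begins at base 199, and in 10.6% of all promoters. These are matches of letters in a window, with no measurement of binding.

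Hsd17b13 is a liver-enriched protein of the lipid droplet surface, with retinol dehydrogenase activity described for the human enzyme. Its brighter probe read 1.80, 3.23, 2.09 and 2.93 liver units on LPS arrays, against 5.14, 6.75, 6.94 and 8.03 units on control arrays. All LPS livers were below all control livers. The pool channel read 5.59 to 6.13 units on LPS arrays and 5.94 to 7.35 units on control arrays. This probe was 2.35-fold lower in LPS livers (difference -1.23 ± 0.21 SE, adjusted p = 0.00485 by limma with every probe on its own; log2 ratios -1.77, -0.87, -1.46 and -0.93 in LPS livers, against -0.21, -0.06, 0.05 and 0.13 in control livers). The second probe was at 0.04 to 0.08 units in LPS livers and 0.03 to 0.05 units in control livers, a few times the smallest step of the values, and its groups overlapped (difference -0.35 ± 0.20 SE, adjusted p = 0.238 by limma). As the average of both, Hsd17b13 fell to -0.76 ± 0.30 in LPS livers, against 0.03 ± 0.20 in control livers (SD, n = 4 each), a difference of -0.79 ± 0.17 (SE), 1.73-fold lower (adjusted p = 0.0124 by limma). With quantile-normalised ratios the difference was -0.60 and the call was lost (adjusted p = 0.127 by limma), and with probes under 0.1 units in both groups left out the value was that of the brighter probe (adjusted p = 0.00143 by limma; p from 0.00129 to 1 over 23 alternatives).

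Hsd17b11, a second lipid droplet enzyme, which oxidises androstanediol to androsterone, is the next gene to Hsd17b13 on chromosome 14 in the GRCr8 gene table, with 0 genes between them. Its probe had values on LPS arrays 2 to 4 and on 0 control arrays, so no comparison could be made. There the liver intensity was 39.54, 30.53 and 39.34 units, against 65.42, 61.93 and 69.06 units in the control pool of the same arrays. The log2 ratios to the pool were -0.73, -1.02 and -0.81. These pool values were 99.6%, 95.3% and 93.4% of the highest pool value of their array, and the part of that ceiling in the ratio was not tested. Of the 542 probes lacking a value on at least 1 array, 144 were above 20 units on another array, among 484 such bright probes.

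**Figure D2:**
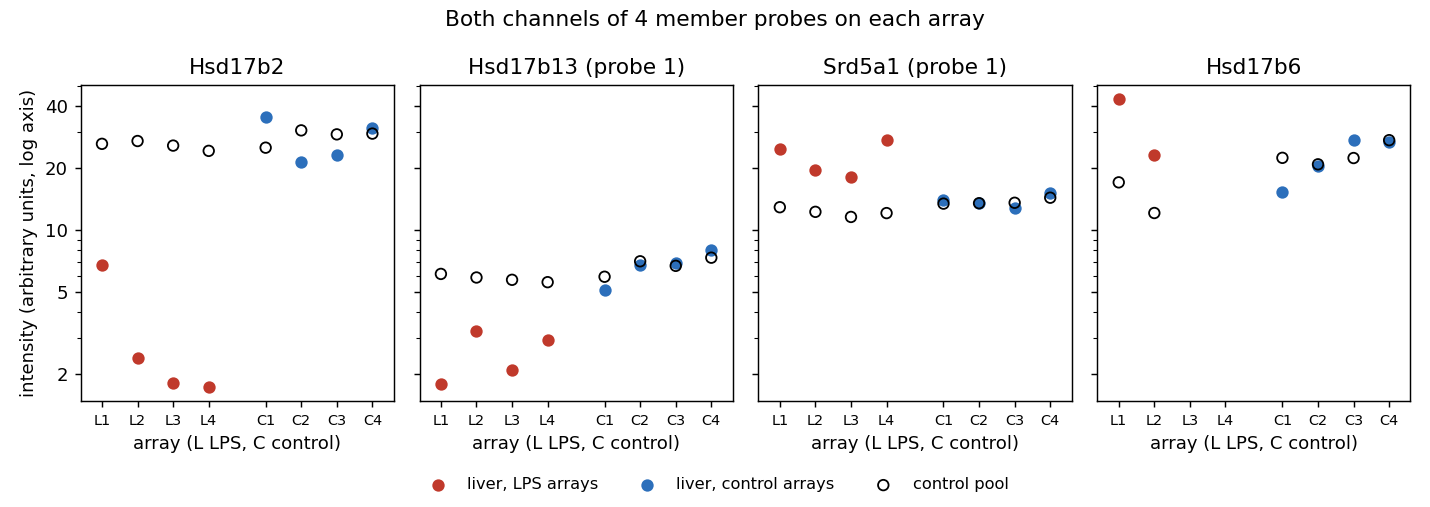
Liver and pool intensity (units, log axis) on each array, LPS arrays to the left of control arrays. The probes are those of Hsd17b2 and Hsd17b6 and the brighter ones of Hsd17b13 and Srd5a1. The pool of Hsd17b2 stays at 24.26 to 30.5 units while its liver points drop to 1.74 units on LPS array 4. Hsd17b6 has no points on LPS arrays 3 and 4.

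Hsd17b12 is the 3-ketoacyl-CoA reductase of very long chain fatty acid elongation in the endoplasmic reticulum and can also reduce oestrone. It read 2.62, 3.01, 2.99 and 2.60 liver units on LPS arrays, against 2.17, 1.91, 1.76 and 2.42 units on control arrays. The log2 ratio was 0.38, 0.76, 0.61 and 0.52 in LPS livers, against 0.17, -0.18, -0.24 and 0.24 in control livers, so the lowest LPS liver was above the highest control. Hsd17b12 rose 1.48-fold, with means of 0.57 ± 0.16 in LPS livers and 0.00 ± 0.24 in control livers (SD, n = 4 each; difference 0.57 ± 0.13 SE, adjusted p = 0.0196 by limma). The call was lost without LPS array 2 (difference 0.50, adjusted p = 0.0527) or LPS array 3 (0.55, adjusted p = 0.0552) and with quantile-normalised ratios (0.38, adjusted p = 0.276, all by limma), with p from 0.00833 to 1 over its 23 alternatives.

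Hsd17b10 is a mitochondrial enzyme that takes part in isoleucine breakdown and is also a subunit of mitochondrial RNase P, which trims the 5′ ends of mitochondrial tRNAs. It read 0.28, 0.30, 0.25 and 0.24 liver units on LPS arrays, against 0.35, 0.40, 0.35 and 0.33 units on control arrays, with a pool of 0.33 to 0.40 units. The log2 ratios were -0.44, -0.42, -0.57 and -0.54 in LPS livers, against 0.00, 0.28, -0.04 and -0.17 in control livers, and the groups did not overlap. Hsd17b10 fell 1.42-fold, to a mean of -0.49 ± 0.07 in LPS livers, against 0.02 ± 0.19 in control livers (SD, n = 4 each; difference -0.51 ± 0.10 SE, adjusted p = 0.00801 by limma). With quantile-normalised ratios the difference was -0.38 and was not called (adjusted p = 0.17 by limma; p from 0.00346 to 1 over 23 alternatives).

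The exact permutation test gave its smallest p, 0.0286, also for Hsd17b10, Hsd17b12, Hsd17b13 and the brighter probe of Srd5a1, and 0.0571 for the average of Srd5a1. The liver channel alone, without the pool, gave differences of -3.35 for Hsd17b2, -0.55 for Hsd17b10, 0.47 for Hsd17b12 and -0.69 for Hsd17b13 (adjusted p = 0.000981, 0.0267, 0.0293 and 0.0401 by limma), and 0.26 for Srd5a1 (adjusted p = 0.272 by limma). LPS array 1, whose header gives the lower dose name, had the least negative ratio of Hsd17b2 (-1.96, against -3.83 to -3.50 on LPS arrays 2 to 4) and the most negative of the brighter probe of Hsd17b13 (-1.77, against -1.46 to -0.87). It also had the lowest ratio of Hsd17b12 (0.38, against 0.52 to 0.76) and lay within the range of the other LPS arrays for Hsd17b10 and both probes of Srd5a1. With 1 array under that header, no test of dose was made. LPS array 1 also stood outside LPS arrays 2 to 4 in the pool channel. Header dose and array set therefore cannot be told apart for it.

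By Pearson correlation of the log2 ratio over the 8 arrays, the closest of 13943 features with a symbol were Cyp3a85-ps (r = 0.998), the circadian transcription factor Dbp (0.992) and Kcnt1 (0.989) for Hsd17b2, and Olr1720 (0.997), Or14j3d (0.994) and Socs1 (0.994) for Hsd17b10. For Hsd17b12 they were Prps1 (0.988), Copa (0.985) and Mrps23 (0.981), and for Hsd17b13 Mios (0.973), Hbz (0.966) and Hspa1l (0.962). The correlations are of ratios to the pool, which need not follow the liver channel. There Olr1720, Or14j3d and Socs1 averaged 0.28, 0.215 and 0.542 units on LPS arrays, against 0.177, 0.198 and 0.46 units on control arrays. Hbz and Hspa1l were likewise higher on LPS arrays (0.193 and 0.1 units, against 0.15 and 0.0825). Cyp3a85-ps and Dbp were lower (2.11 and 0.805 units, against 15.7 and 4.62). The points share 1 pool and fall into the 2 groups of arrays, so the correlations are descriptions. Since likeness to a called member fixes a difference between the groups, no test of these genes is given.

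The other 17-beta-hydroxysteroid dehydrogenases went both ways. Of 5 tested, 2 rose and 2 fell, with a median difference of -0.14. Hsd17b7, a 3-ketosteroid reductase of cholesterol synthesis, had log2 ratios of 1.17, 1.81, 1.13 and 1.52 in LPS livers, against 0.00, -0.11, 0.23 and -0.03 in control livers (difference 1.39 ± 0.16 SE, 2.62-fold, adjusted p = 0.00103 by limma). Hsd17b4, the multifunctional enzyme of peroxisomal beta-oxidation, had -0.69, -0.71, -0.78 and -0.70 in LPS livers, against 0.12, -0.15, 0.02 and 0.05 in control livers (difference -0.73 ± 0.07 SE, adjusted p = 0.000405 by limma). Both sets of arrays were well apart. Hsd17b1, which makes oestradiol from oestrone, was at 0.07 to 0.11 units in LPS livers and 0.04 to 0.07 units in control livers, with both channels equal on every control array (difference 0.21 ± 0.04 SE, adjusted p = 0.012 by limma), and was not called in the liver channel alone (adjusted p = 0.231 by limma). Hsd17b8, a subunit of mitochondrial fatty acid synthesis, differed by -0.47 ± 0.12 (SE, adjusted p = 0.0298 by limma), a call lost without any 1 of LPS arrays 2 to 4 or control arrays 1 to 3 (adjusted p = 0.0635 to 0.081 by limma).

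**Figure D3:**
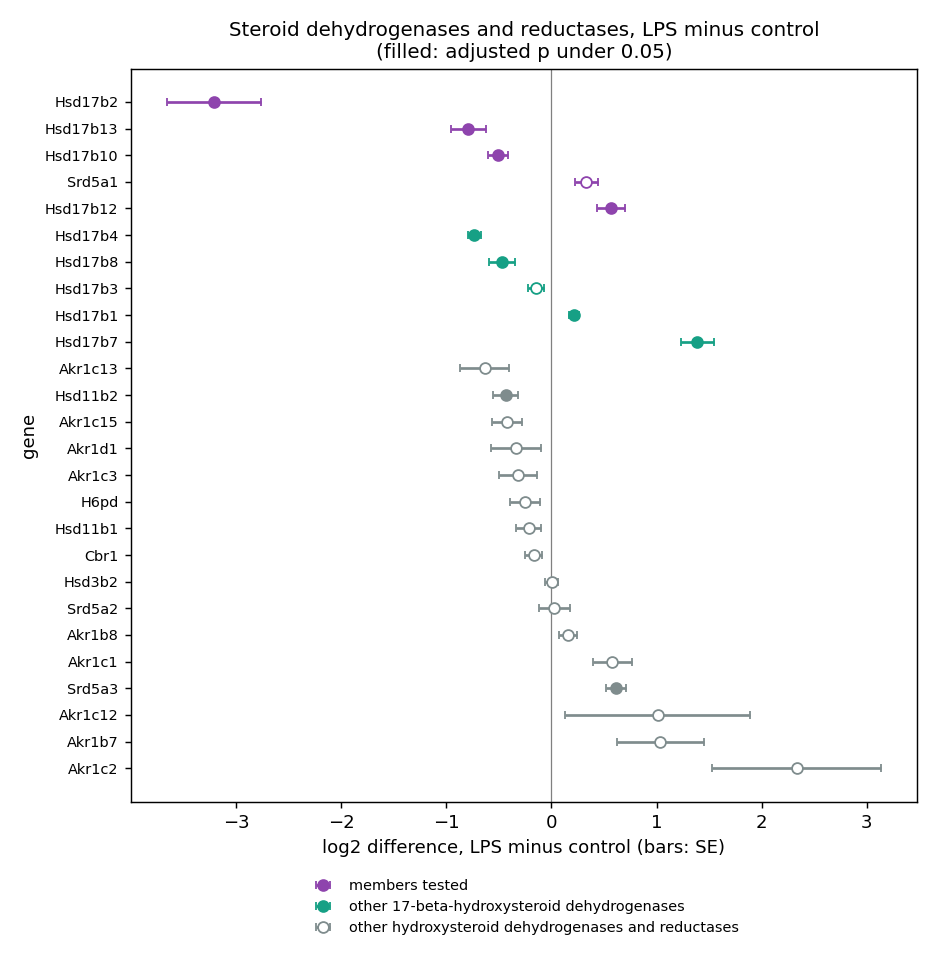
LPS minus control on the log2 scale with its standard error for the tested 17-beta-hydroxysteroid dehydrogenases and steroid reductases. Hsd17b2 at -3.21 lies furthest below 0 and Hsd17b7 at 1.39 furthest above 0 among the called genes.

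Among 16 other hydroxysteroid dehydrogenases and steroid and aldo-keto reductases, 1 rose and 1 fell, with a median of -0.08. Srd5a3, a relative of Srd5a1 that reduces polyprenol to dolichol for protein glycosylation, was at 0.84, 0.57, 0.68 and 0.46 in LPS livers, against 0.04, 0.09, 0.10 and -0.13 in control livers (difference 0.61 ± 0.09 SE, adjusted p = 0.00329 by limma). Hsd11b2, which inactivates glucocorticoids, differed by -0.44 ± 0.12 (SE, adjusted p = 0.0319 by limma) and lost its call without any 1 LPS array or control array 2 (adjusted p = 0.0563 to 0.0782). Its probe was dim, at a mean of 0.0925 units in LPS livers and 0.0775 units in control livers, and the liver channel alone gave -0.07 (adjusted p = 0.761 by limma). Without LPS array 4, 3 genes of the list were higher and 0 lower, and without control array 3 or 4, 2 were higher. Of 23 retinol and other short-chain dehydrogenases, 4 rose and 7 fell, with a median of -0.08. Sdr39u1 (1.05 ± 0.07) and the retinal reductase Rdh11 (0.84 ± 0.14) rose, and Bdh2 (-2.12 ± 0.30) and Bdh1, the ketone body dehydrogenase of mitochondria (-1.52 ± 0.24), fell (SE; adjusted p = 0.000186, 0.0045, 0.00228 and 0.00358 by limma).

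In steroid conjugation and deconjugation, 1 of 16 genes rose and 4 fell, with a median of -0.11. Papss1, which makes the sulfate donor of sulfotransferases, rose by 0.71 ± 0.09, and the glucuronosyltransferases Ugt2b1 and Ugt2b37 fell by 2.84 ± 0.44 and 1.68 ± 0.09 on the log2 scale (SE; adjusted p = 0.00153, 0.00343 and 0.000102 by limma). The steroid-hydroxylating cytochromes P450 had the lowest median of the 10 lists, -0.76, with 2 of 14 higher and 8 lower. Cyp2c11, the male-predominant form of rat liver, fell by 2.03 ± 0.19 and Cyp3a23-3a1 by 2.64 ± 0.35, while Cyp2c12, the female-predominant form, was 1.73 ± 0.39 higher and the oxysterol hydroxylase Cyp7b1 0.56 ± 0.12 higher (log2 scale, SE; adjusted p = 0.000462, 0.00177, 0.0159 and 0.014 by limma). Without any 1 of LPS arrays 3 and 4 or control array 2, 5 of these P450 genes were lower. Among 15 steroid receptors and partners, 2 rose and 5 fell, with a median of -0.18: Serpina6, the corticosteroid-binding globulin, fell by 3.24 ± 0.24 and Pgrmc1 by 0.85 ± 0.13 (adjusted p = 0.000213 and 0.00506 by limma). The coactivator Ncoa3 (0.23 ± 0.05) and the co-chaperone Fkbp4 (0.36 ± 0.10) rose (SE; adjusted p = 0.0172 and 0.0377 by limma), and Fkbp4 lost the call, not the direction, without any 1 of LPS arrays 1, 2 and 4 or control arrays 1, 2 and 4 (adjusted p = 0.0694 to 0.0948).

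Of 10 genes of very long chain fatty acid elongation, the pathway of Hsd17b12, 3 rose and 1 fell (median -0.05). The elongase Elovl6 rose by 2.05 ± 0.19 and Hacd3, the dehydratase that follows Hsd17b12, by 0.50 ± 0.14, while Elovl2 fell by 1.04 ± 0.31 (log2 scale, SE; adjusted p = 0.000484, 0.0359 and 0.0452 by limma). Hacd3 lost its call without any 1 of LPS arrays 1, 3 and 4 or control arrays 1, 3 and 4 (adjusted p = 0.0735 to 0.0932) and Elovl2 without any 1 array but control array 3 (adjusted p = 0.0576 to 0.113). Of 17 lipid droplet genes, the setting of Hsd17b11 and Hsd17b13, 4 rose and 3 fell (median 0.05). Lanosterol synthase Lss (1.33 ± 0.17) and the acyl-CoA synthetase Acsl3 (1.02 ± 0.13) rose, and the monoglyceride lipase Mgll (-0.96 ± 0.12) and Fitm2 (-0.84 ± 0.15) fell (SE; adjusted p = 0.00141, 0.00145, 0.00139 and 0.00585 by limma).

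Of 17 genes of mitochondrial RNase P and branched-chain amino acid breakdown, the processes of Hsd17b10, 10 fell and 0 rose (median -0.36). Acadsb, the dehydrogenase of isoleucine breakdown, fell by 0.81 ± 0.14 and Mccc2, a subunit of the carboxylase of leucine breakdown, by 0.63 ± 0.12 (log2 scale, SE; adjusted p = 0.00466 and 0.00809 by limma). The Acadsb probe was dim, at a mean of 0.08 units on LPS arrays and 0.145 units on control arrays. With quantile-normalised ratios 0 of the 17 were called lower, and with the liver channel alone 8 were; without control array 2, 9 were lower and 1 higher. Of 11 genes that supply NADPH and NAD, the cofactors of these enzymes, 3 rose and 2 fell (median 0.05). Transaldolase, Taldo1 (0.65 ± 0.06), rose, and the mitochondrial kinase Nadk2 (-0.66 ± 0.18) and malic enzyme Me1 (-0.60 ± 0.15) fell (SE; adjusted p = 0.000527, 0.034 and 0.0209 by limma). Both lost the call, not the direction, without LPS array 2, 3 or 4 (adjusted p = 0.0505 to 0.0884), Nadk2 also without LPS array 1 (0.0749) or control array 4 (0.0788), and Me1 also without control array 2 (0.0511). With quantile-normalised ratios Hsd17b7, Hsd17b4, Srd5a3, Sdr39u1, Bdh2, Papss1, Ugt2b1, Ugt2b37, Serpina6, Cyp2c11, Elovl6, Lss, Mgll and Taldo1 were still called, and the other genes named from the 10 lists were not. The numbers higher and lower were then 0 and 2 for the P450s, 2 and 1 for the retinol and short-chain dehydrogenases, 0 and 2 for the receptors, 1 and 4 for conjugation, 2 and 2 for lipid droplets, 1 and 0 for elongation, 1 and 0 for cofactor supply, 1 and 1 for the other 17-beta-hydroxysteroid dehydrogenases, and 1 and 0 for the other reductases. With the liver channel alone Hsd17b1, Hsd17b8, Hsd11b2, Ncoa3, Fkbp4, Cyp7b1 and Hacd3 were not called, and the others were.

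**Figure D4:**
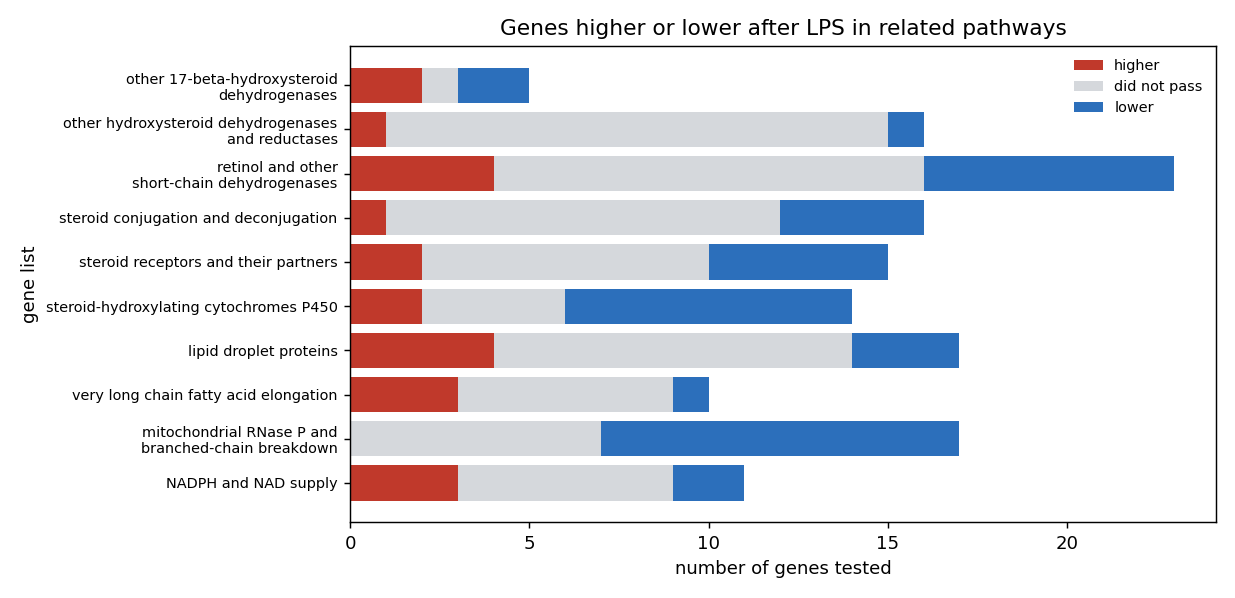
Number of genes called higher and lower in LPS livers, and not called, in each of the 10 lists around the steroid enzymes. The P450s have 8 of 14 lower, the mitochondrial list 10 of 17 lower and 0 higher, and the lipid droplet list 4 higher and 3 lower.

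The samples were whole livers, so fewer cells of a type and less RNA per cell cannot be told apart. Summed over the markers with a value on every array, hepatocyte markers (5 of 10) read 34.82 to 39.6 units on LPS arrays and 48.8 to 61.27 units on control arrays, with 1 marker called higher and 1 lower, albumin (Alb, -1.40 ± 0.12 SE, adjusted p = 0.000342 by limma). Of the 10 hepatocyte markers 9 had a probe, and those lacking a value on any array are not in the sum. The 1 Alb probe in the sum averaged 16.8 units on LPS arrays and 32.6 units on control arrays. The difference given for Alb is of log2 ratios over its tested probes. Another Alb probe averaged 28.6 units on LPS arrays and had no value on control arrays. Cps1 averaged 3.77 units on LPS arrays and 5.54 units on control arrays. Apob averaged 16.6 and 17.1 units and Hnf4a 0.198 and 0.17 units in the same order. The marker called higher was dim, at 0.0675 and 0.02 units. Neutrophil markers (7 of 7) read 7.72 to 13.35 units on LPS arrays and 0.41 to 0.51 units on control arrays, 4 called higher, although 5 of the 7 averaged under 0.1 units. S100a9 made up most of that sum, at a mean of 9.35 units on LPS arrays and 0.235 units on control arrays, and Mpo, Elane and Cxcr2 were not called. Endothelial markers (6 of 6) read 29.25 to 39.0 units on LPS arrays and 43.23 to 49.73 units on control arrays, with 2 called each way, and Kdr averaged 18.1 units on LPS arrays and 30.2 units on control arrays. The sums were 26.89 to 44.11 units on LPS arrays and 38.21 to 54.35 units on control arrays for Kupffer cell and macrophage markers (9 of 9, 1 higher and 2 lower, or 4 lower without LPS array 1), and 1.62 to 2.43 units on LPS arrays and 0.98 to 1.14 units on control arrays for T and NK cell markers (6 of 7, 4 higher and 0 lower). Stellate cell markers (5 of 6) read 4.93 to 6.08 units on LPS arrays and 4.93 to 6.5 units on control arrays, cholangiocyte markers (4 of 5) 0.83 to 1.01 units on LPS arrays and 0.68 to 0.95 units on control arrays, and B cell markers (4 of 5) 0.34 to 0.5 units on LPS arrays and 0.21 to 0.46 units on control arrays. None of the markers averaged 0, and the part of these cell types in the results above was not tested.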

How the data were processed

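Per the labels' protocols, 100 ng of RNA was amplified in 2 rounds and hybridised with each liver in Cy5 and the control pool in Cy3. The submitters' processing notes name Agilent Feature Extraction 8.5.1.1; how background and dyes were corrected is not stated there. The deposited intensity values are linear, in arbitrary units with 2 decimals. The authors' deposited p-value per probe sets liver against pool within an array. The deposited series values are log10 ratios of liver over pool, and differed from the log10 of the intensity ratios by at most 0.0048 where both channels exceeded 1 unit; each column's median was 0. Numbers of arrays and dimness limit the precision.

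From the deposited intensities, log2 of liver divided by pool was taken for every probe. Probes were named by RefSeq accession (4176), current symbol (9464) or older symbol (2629) through the GRCr8 gene table; 469 kept a symbol not in it and 6877 had none. A group needed 3 values, which removed 188 probes, and probes of a symbol were averaged. The resulting 21052 features were fitted in limma 3.58.1 under R 4.3.3 (lmFit, eBayes, 4 LPS against 4 control arrays). The fit was tested on simulated data. The members and lists were chosen with earlier results of these data known. Named were all members, up to 2 called genes per direction and list, by size of change (1 such gene is not reported here), and for each called member the 3 features with the highest correlation. Animal numbers in the headers are in no label, so columns were assigned to a group only. Alternatives were robust and trended eBayes, centring, quantile normalization, the liver channel alone, array weights, filters on dim, near-ceiling and incomplete probes, single probes, treat, the series values with and without a replicate block, and leaving out each array; at least 2 values per group, and at least 0.1 units in both groups, were added after the data were seen. For members the exact permutation test, whose p is not adjusted, was also counted among the alternatives. Tables and figures used Python 3.11.15, numpy 2.4.6, pandas 2.3.3 and matplotlib 3.10.9.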

Additional observations from a re-analysis of the deposited data

Results flagged for a closer look

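Among 118 groups of 4 arrays of the genes and probes named, 3 had 1 array far from the others, its gap to the nearest of them over the whole range being above Dixon's 95% critical value for groups of 4; chance flags about 1 in 20 groups. None was of a steroid dehydrogenase or reductase described above. Clec4f, a Kupffer cell marker, had a log2 ratio of -1.74 on LPS array 1, against -2.55 to -2.46 on the other LPS arrays. Pgrmc1 had -1.08 on LPS array 3, against -0.85 to -0.81 on the other LPS arrays. Ugt2b37 had -1.89 on LPS array 3, against -1.62 to -1.61 on the other LPS arrays.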

How the results depend on the processing

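No called value of a member or named gene turned its direction under any alternative run. Of 21052 features 5190 (24.7%) were called in the main fit. Of the same 21052, quantile normalization of the ratios gave 1518 and treat against a 1.5-fold change 391 (1.86%). Under each of these 1 member was called, Hsd17b2. Leaving out each array gave 4004 to 4834 features and 3 to 4 members. The other settings gave 3641 (liver channel alone) to 6070 (array weights) features and 4 or 5 members, 5 where dim probes were left out, probes were fitted singly or 2 values per group were allowed. With the replicate numbers of the labels as a block, through the series values, 3786 features and 4 members were called, against 5194 and 4 without it; Hsd17b12 was then lost (adjusted p = 0.08 by limma) and Srd5a1 gained (adjusted p = 0.0265 by limma). Deviations of samples with the same number correlated at -0.012, -0.018, 0.029 and 0.166, and 2 of 4 LPS samples correlated best with their own number, so the numbers were not taken to pair the samples. Of the 51 called genes that the naming rule picked beside the members, markers included and not all named above, 27 lost the call with quantile normalization, 12 with the liver channel alone, 9 with the block, 37 under treat and 7 without at least 1 array; the cause was not tested. The share of called features that were higher was 49.6%, against 54.3% with quantile normalization and 41.4% with the liver channel alone. The 2 decimals limit dim probes, such as the second probe of Hsd17b13, and missing values limit bright ones, such as Hsd17b6 and Hsd17b11.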
